A study of Mus musculus with 6 samples.

Results

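The BAFF and APRIL system consists of 5 genes: the receptor genes Tnfrsf13b, Tnfrsf13c and Tnfrsf17, and the ligand genes Tnfsf13b and Tnfsf13. They were taken by name from the 53379 genes counted in each library, and all 5 were among the 14555 genes with enough counts to be tested. The samples were follicular helper T (Tfh) cells, the CD4+ T cells that help B cells in germinal centers, sorted from spleen as live TCRβ+CD4+CXCR5+PD1+ cells. Each of 3 Prdm1-CKO and 3 CTL female mice, 6 to 8 weeks old, gave 1 library on day 7 after immunization with NP-CGG, a haptenated foreign protein, in complete Freund's adjuvant.

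The Prdm1-CKO mice were Prdm1 fl/fl with a CD11c-Cre transgene, so that Prdm1, which encodes the transcriptional repressor BLIMP-1, was deleted in CD11c-expressing cells, mainly dendritic cells (DCs), and not by design in the sorted T cells. The study drew its CTL mice from both Prdm1 fl/fl mice without Cre and Prdm1+/+ mice with CD11c-Cre, and the labels do not say which of these each CTL mouse was. The labels name the Prdm1-CKO group a Blimp1 KO in the titles and a Blimp1 KD in the genotype field. Prdm1 was counted 422, 253 and 186 times in CTL replicates 1 to 3, against 536, 303 and 451 times in Prdm1-CKO replicates 1 to 3, or 28.8 ± 1.23 and 30.6 ± 0.374 CPM (SD, n = 3). CPM are counts normalised to the size of the library. Since the deletion was aimed at another cell type, these counts do not check the labels.

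BAFF (B cell activating factor) and APRIL (a proliferation-inducing ligand) are related TNF family cytokines, made largely by myeloid and stromal cells, that sustain B cells and plasma cells. BAFF-R, encoded by Tnfrsf13c, binds BAFF alone and signals through TRAF3 and the noncanonical NF-κB pathway for the survival of mature B cells. TACI, encoded by Tnfrsf13b, and BCMA, encoded by Tnfrsf17, bind both ligands. TACI is found on marginal zone B cells, activated B cells and plasma cells, and also on macrophages and some activated T cells, while BCMA is a receptor of plasma cells.

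Total counts per library lay between 7147601 and 16973392, and 3 counts, the smallest number read here as a level, stood for 0.169 to 0.444 CPM. That floor and the intervals below cover the spread and counting error of these libraries only. CTL replicate 2 stood apart, with 16650 genes counted against 18480 to 21501 in the others and a mean correlation of 0.875 with the other mice against 0.923 to 0.944, and the results most affected by it are also given without it. The Tfh markers Cd4 and Cd3e were abundant, at 996 ± 88.1 and 663 ± 114 CPM (SD, n = 3) in CTL mice, and RNA of other cells was also present. Lyz2, the lysozyme of myeloid cells, was at 2656 ± 859 CPM and Ighm, the immunoglobulin mu heavy chain, at 2766 ± 831 CPM (SD, n = 3) in CTL mice. Every level below is therefore that of the sorted pool, in which fewer cells of a type and less RNA per cell cannot be told apart.

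The receptor genes share a short ligand-binding region held together by disulfide bonds between cysteines, and its reading frame is shown because the counts below belong to these otherwise dissimilar genes. Each sequence, from the GENCODE M21 reference transcripts on GRCm38, runs 5′ to 3′ from the start codon to a late cysteine codon of that region, with the cysteine codons (TGC or TGT) in capitals. The stretch of Tnfrsf13c lies at chr15:82224199-82224312 on the minus strand and holds all 4 cysteine codons of its 175 codons. That of Tnfrsf13b spans chr11:61140835-61141373 on the plus strand across an intron and holds 12 of 21. That of Tnfrsf17 lies at chr16:11313953-11314060 on the plus strand and holds 6 of 9.
Tnfrsf13c (BAFF-R): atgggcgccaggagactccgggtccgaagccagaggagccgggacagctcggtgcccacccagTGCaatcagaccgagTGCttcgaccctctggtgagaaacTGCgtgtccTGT
Tnfrsf13b (TACI): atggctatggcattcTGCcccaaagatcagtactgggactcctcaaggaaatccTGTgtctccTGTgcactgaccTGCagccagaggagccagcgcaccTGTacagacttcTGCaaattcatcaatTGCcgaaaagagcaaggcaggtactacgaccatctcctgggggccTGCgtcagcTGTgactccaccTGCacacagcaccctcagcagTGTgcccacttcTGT
Tnfrsf17 (BCMA): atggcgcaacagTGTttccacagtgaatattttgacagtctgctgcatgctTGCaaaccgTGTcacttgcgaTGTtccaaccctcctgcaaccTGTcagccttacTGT

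Among the ligand genes, a sequence matters to the counting of Tnfsf13. Its exons overlap those of Tnfsfm13, a read-through gene that joins the neighboring TWEAK gene Tnfsf12 to Tnfsf13, over 983 of its 1637 exon bases (60.0%). The noncoding gene Tnfsf13os covers 221 bases on the opposite strand. The coding bases that Tnfsf13 holds outside Tnfsfm13 are its first 129, at chr11:69685131-69685259 on the minus strand, shown with the start codon in capitals.
Tnfsf13 (APRIL): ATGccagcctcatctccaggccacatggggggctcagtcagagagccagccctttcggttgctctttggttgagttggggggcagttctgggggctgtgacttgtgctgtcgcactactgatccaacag

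The 5 genes lay at 2 clearly separate levels. TACI was the main transcript of the system in the sorted Tfh pool, and the other 4 were low. Per kilobase of exon, the scale on which genes of different length can be compared, Tnfrsf13b was at 40.4 CPM per kilobase over the 6 mice and ranged from 33.4 to 46.7. Tnfrsf13c followed with a mean of 2.93 and a range of 0.925 to 4.68 CPM per kilobase. Tnfrsf17 had a mean of 1.93 and a range of 0 to 5.49 CPM per kilobase, Tnfsf13 a mean of 1.46 and a range of 0.289 to 2.86, and Tnfsf13b a mean of 0.833 and a range of 0.569 to 1.01. The lowest Tnfrsf13b value was above the highest value of any other member, while each of the other neighbors in this order overlapped in their ranges and did not differ beyond the spread of the mice. The place of Tnfsf13 depends on how reads on the shared exons were counted, which is not given in the sources used here. Divided by its 654 unshared bases alone, its mean would be 3.67 CPM per kilobase, above that of Tnfrsf13c.

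**Figure D1:**
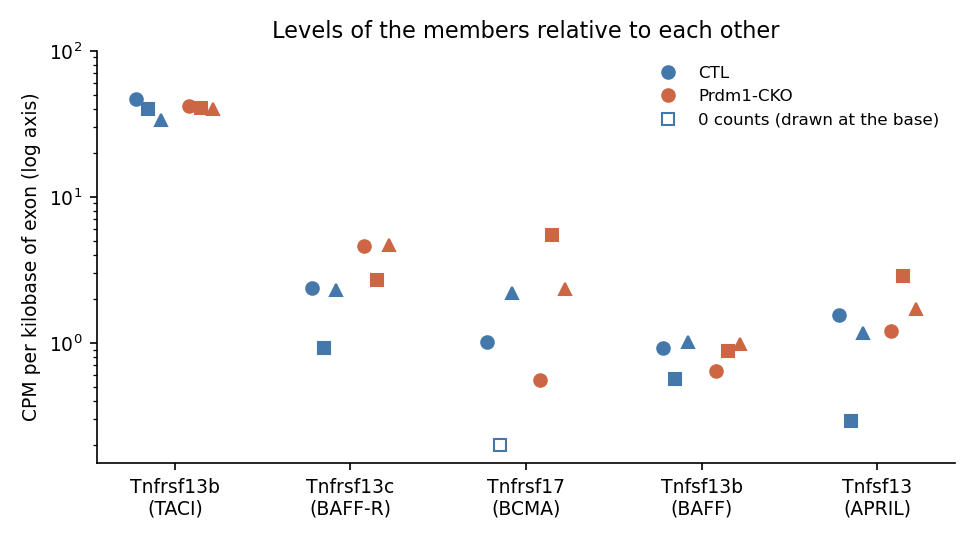
Level of each gene in each mouse in CPM per kilobase of exon, on a log axis, with CTL mice in blue, Prdm1-CKO mice in orange and the symbol giving the replicate number; an open symbol marks a library with 0 counts, drawn at the base of the axis. Tnfrsf13b lay at 33.4 to 46.7 in all 6 mice and the other 4 genes at 5.49 or less.

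No member differed between Prdm1-CKO and CTL Tfh at an adjusted p under 0.05 in edgeR's quasi-likelihood test, where the background was 0% higher and 0% lower among the 14555 genes. In DESeq2 every member had an adjusted p of 0.9998, so 0 of the 5 passed there either. Over all genes, that threshold was passed in DESeq2 by 7 with a rise and 2 with a fall. At an unadjusted p under 0.05 edgeR called 0 of the 5, against a background of 0.928% higher and 1.42% lower, and DESeq2 called 1, Tnfrsf13c, against a background of 1.01% higher and 1.6% lower among the 26030 genes it tested. In 1 of the 5, again Tnfrsf13c, all Prdm1-CKO mice exceeded all CTL mice, an arrangement seen in 4.56% of all genes tested, and the reverse, seen in 3.86% of genes, held for 0 members.

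Tnfrsf13c, the BAFF receptor gene, which spans 82221743 to 82224369 on the minus strand of chromosome 15 (GRCm38, GENCODE M21), was higher in each Prdm1-CKO mouse than in any CTL mouse, but not beyond the threshold. It was counted 71, 16 and 32 times in CTL replicates 1 to 3, against 167, 54 and 140 times in Prdm1-CKO replicates 1 to 3. In CPM these were 4.86, 1.90 and 4.73 in CTL and 9.41, 5.49 and 9.59 in Prdm1-CKO mice. The groups did not overlap, with Prdm1-CKO replicate 2 just above CTL replicate 1 and the low CTL mouse being the library that stood apart. With all libraries thinned to the smallest total, the counts were 30, 10 and 32 in CTL, against 72, 33 and 62 in Prdm1-CKO mice, and the groups were again separate, by 1 count. The means were 3.83 ± 1.68 and 8.16 ± 2.32 CPM (SD, n = 3). The log2 fold change was 1.09 (standard error 0.50, 95% interval -0.07 to 2.24), with an unadjusted p of 0.0617 and an adjusted p of 0.996 from edgeR. DESeq2 gave an unadjusted p of 0.0346, and over the alternatives the unadjusted p lay between 0.0346 and 0.172 and was under 0.05 in 5 of 14. Without CTL replicate 2 the log2 fold change was 0.76 (standard error 0.39, unadjusted p = 0.0888, adjusted p = 0.999 from edgeR), the lowest value when each mouse was left out in turn, and the highest was 1.31. The study named Tnfrsf13c from these same libraries, so its direction here is not independent evidence. The study also reported higher Tnfrsf13c in Prdm1-CKO Tfh by qPCR in a separate cohort of mice, and measured BAFF-R protein by flow cytometry. Those measurements are not part of the counts used here.

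Tnfrsf13b, the TACI gene, on chromosome 11 from 61126755 to 61149372 on the plus strand, was the most evenly expressed member. It was counted 1933, 950 and 640 times in the CTL mice, against 2102, 1138 and 1650 times in the Prdm1-CKO mice. In CPM these were 132, 113 and 94.7 against 118, 116 and 113. The groups overlapped, the Prdm1-CKO mice lying inside the range of the CTL mice, and the highest mouse was 1.4-fold above the lowest. The means were 113 ± 18.9 and 116 ± 2.72 CPM (SD, n = 3). The log2 fold change was 0.03 (standard error 0.17; edgeR adjusted p = 0.996), and the 95% interval of -0.35 to 0.41 excludes a change of the size estimated for Tnfrsf13c. With its many counts, TACI had the narrowest interval of the 5 genes.

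Tnfrsf17, the BCMA gene, on chromosome 16 from 11313812 to 11320074 on the plus strand, was near the floor in several mice. It was counted 12, 0 and 12 times in the CTL mice, against 8, 44 and 28 times in the Prdm1-CKO mice. In CPM these were 0.822, 0 and 1.78 against 0.451, 4.47 and 1.92, and the 0 of CTL replicate 2 allows up to 0.355 CPM. The groups overlapped, with Prdm1-CKO replicate 1 below 2 of the CTL mice and Prdm1-CKO replicate 2 above all other mice. The means were 0.866 ± 0.889 and 2.28 ± 2.04 CPM (SD, n = 3). The log2 fold change was 1.398 (standard error 1.21, 95% interval -1.37 to 4.17, adjusted p = 0.996 from edgeR), and it was 0.81 without CTL replicate 2. At this depth the data for BCMA allow both a fall and a rise of over 2-fold.

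The BAFF gene Tnfsf13b, on chromosome 8 from 10006467 to 10039072 on the plus strand, was detected at a low level in every mouse. It was counted 93, 33 and 47 times in the CTL mice, against 78, 59 and 98 times in the Prdm1-CKO mice. In CPM these were 6.37, 3.91 and 6.95 against 4.40, 5.999 and 6.71, so that the groups overlapped almost fully and both the lowest and the highest mouse were CTL. The means were 5.74 ± 1.62 and 5.70 ± 1.19 CPM (SD, n = 3). The log2 fold change was -0.01 (standard error 0.43, 95% interval -1.002 to 0.98, adjusted p = 0.998 from edgeR). The sign of so small a difference was not stable, and the values with each mouse left out ran from -0.24 to 0.15.

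The APRIL gene Tnfsf13, on chromosome 11 from 69682846 to 69685784 on the minus strand, was counted 37, 4 and 13 times in the CTL mice, against 35, 46 and 41 times in the Prdm1-CKO mice. In CPM these were 2.53, 0.474 and 1.92 against 1.97, 4.68 and 2.81. The groups overlapped, since Prdm1-CKO replicate 1 lay below CTL replicate 1, and CTL replicate 2 was just above the floor of 3 counts. The means were 1.64 ± 1.06 and 3.15 ± 1.38 CPM (SD, n = 3). The log2 fold change was 0.91 (standard error 0.72, 95% interval -0.74 to 2.57, adjusted p = 0.996 from edgeR), and without CTL replicate 2 it was 0.47. The overlapping Tnfsfm13 was counted 9, 0 and 2 times in CTL, against 3, 0 and 6 times in Prdm1-CKO mice, and Tnfsf12, whose product TWEAK is a separate TNF ligand, was counted 2, 4 and 2 times against 7, 2 and 4 times. Both were too low to be tested. Because reads of Tnfsfm13 and those of Tnfsf13 can be exchanged by the counting, the APRIL values are uncertain. Of all the runs of 25 bases, the read length, in the transcripts of Tnfsf13, 58.8% also occurred in transcripts of other genes, against 0% for Tnfrsf13b and Tnfrsf17, 0.463% for Tnfsf13b and 2.89% for Tnfrsf13c.

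**Figure D2:**
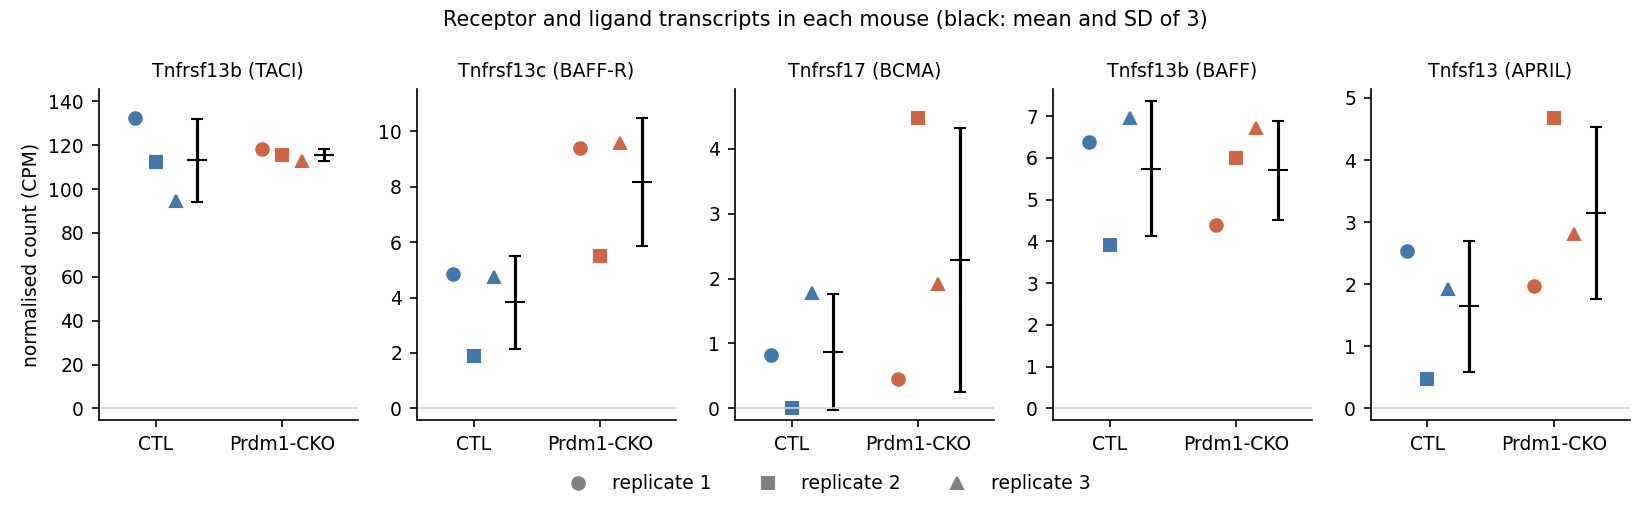
Normalised counts of the 5 genes in CPM, each with its own linear axis, for CTL mice in blue and Prdm1-CKO mice in orange, with the mean and SD of 3 mice in black and the symbol giving the replicate number. Tnfrsf13c separated the groups, at 1.90 to 4.86 CPM in CTL and 5.49 to 9.59 CPM in Prdm1-CKO mice, while the other 4 genes overlapped.

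Most B cell markers had, like Tnfrsf13c, a log2 fold change above 0. The 16 B cell marker genes were all tested, 0 passed an adjusted or an unadjusted p under 0.05 in edgeR, 15 had a log2 fold change above 0, as had 51.1% of all genes tested, and in 5 of them all Prdm1-CKO mice were higher, against 4.56% of all genes. Their median log2 fold change was 0.75, against 0.01 over all genes tested, and it was 0.47 without CTL replicate 2 and 1.25 without CTL replicate 1. The markers summed to between 130 and 257 CPM in CTL and between 221 and 326 CPM in Prdm1-CKO mice. None was at 0 in all 6 mice, but Pax5, Fcer2a, Ebf1, Fcrla and Spib had 0 counts in CTL replicate 2. Vpreb3 had 0 counts in CTL replicate 3. Of these genes, Pax5 and Spib were among the 5 in which all Prdm1-CKO mice were higher. Cd79b, a signaling chain of the B cell receptor, was at 30.4 ± 16.7 and 52.5 ± 7.51 CPM (SD, n = 3), and its log2 fold change was 0.79 (standard error 0.42; edgeR adjusted p = 0.996). Cd22, an inhibitory receptor of B cells, was at 47.4 ± 13.1 and 48.6 ± 13.9 CPM (SD, n = 3), and its log2 fold change was 0.04.

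Set against the summed B cell markers of the same mouse, Tnfrsf13c made up 1.89%, 1.46% and 2.79% of their CPM in CTL replicates 1 to 3, against 2.89%, 2.48% and 2.99% in Prdm1-CKO replicates 1 to 3. On the log2 scale these ratios were -5.66 ± 0.47 and -5.17 ± 0.14 (SD, n = 3), a difference of 0.49 (two-sided exact permutation test, p = 0.2, where 3 mice against 3 cannot go below 0.1). With the mean of the log2 CPM of the 16 markers, in which low genes weigh as much as high ones, the difference was -0.06 (exact permutation test, p = 1). Markers with 0 counts in a mouse entered that mean only through the prior count. Tnfrsf13c counts were 18.8% to 31.0% of those of Cd79a and 11.1% to 17.6% of those of Cd79b in the 6 mice, a range of 1.65-fold and 1.59-fold where Tnfrsf13c CPM itself ranged 5.06-fold. Over the 6 mice the Pearson correlation of log2 CPM between Tnfrsf13c and the mean of the B cell markers was 0.95, and 0.83 without CTL replicate 2. With the macrophage and monocyte markers it was 0.90, and 0.62 without that mouse, and with the Tfh markers it was 0.07. These 6 points share their libraries and the depth of each, and the part of B cell RNA in the Tnfrsf13c difference was not tested beyond the ratios above.

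The values of TACI beside the B cell markers depended on the marker. Its counts were between 201% and 960% of those of Cd79b, not corrected for length, and the share was largest in CTL replicate 2, where the summed B cell markers were lowest. Beside Ms4a1, which encodes CD20, the range was narrower, from 347% to 821% or 2.36-fold with the largest share in CTL replicate 3, while Tnfrsf13c ranged 3.90-fold beside the same gene. The correlation of Tnfrsf13b with the B cell markers over the 6 mice was 0.38, with the macrophage and monocyte markers 0.32 and with the Tfh markers -0.85, and without CTL replicate 2 these were 0.67, 0.79 and -0.87. Its counts were 14.0% to 35.2% of those of Csf1r, the receptor that defines macrophages and monocytes, and 12.1% to 23.6% of those of Cd3e. These values describe the pool and do not assign TACI to a cell type.

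**Figure D3:**
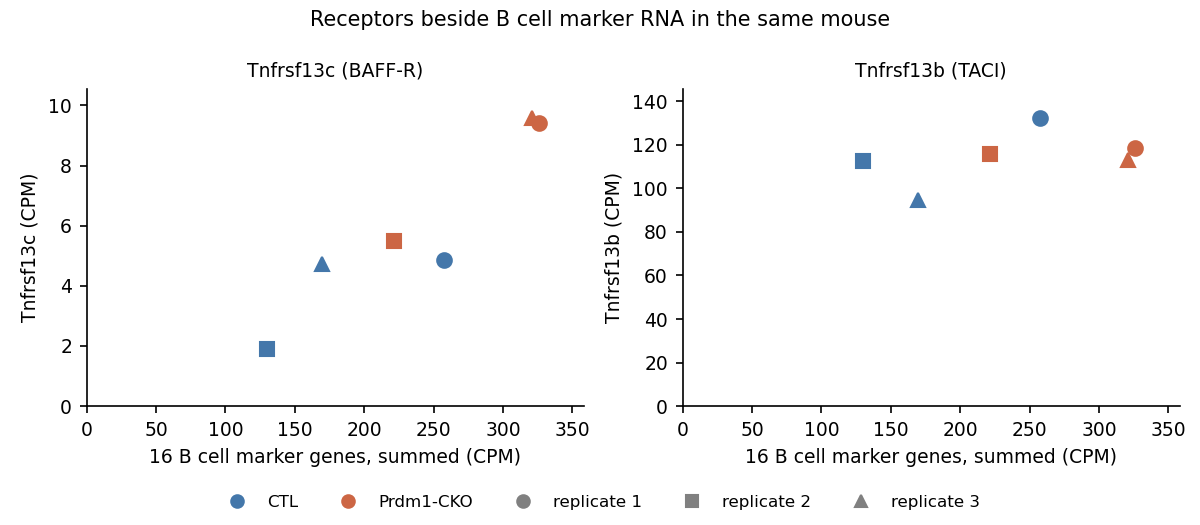
CPM of Tnfrsf13c (left) and Tnfrsf13b (right) against the summed CPM of 16 B cell marker genes in the same mouse, on linear axes from 0, with CTL mice in blue and Prdm1-CKO mice in orange. Tnfrsf13c was lowest, at 1.90 CPM, in the mouse with the least B cell marker RNA and highest, at 9.41 and 9.59 CPM, in the 2 mice with the most. CTL replicate 1 had more B cell marker RNA than Prdm1-CKO replicate 2, at 257 against 221 CPM. Its Tnfrsf13c was lower, at 4.86 against 5.49 CPM. Tnfrsf13b stayed between 94.7 and 132 CPM.

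Plasma cell and macrophage and monocyte markers, of cells that bind or make BAFF and APRIL, also had median log2 fold changes above 0, with 0 genes past the adjusted threshold in edgeR. The 10 plasma cell markers, beside which BCMA belongs, had a median log2 fold change of 0.52 with 8 of 10 above 0 (0.34 without CTL replicate 2), and summed to 2569 to 4493 CPM in CTL and 3990 to 5381 CPM in Prdm1-CKO mice, with Ighm and Jchain, the joining chain of secreted antibody, as the most abundant. Jchain was at 340 ± 74.1 and 516 ± 140 CPM (SD, n = 3), and its log2 fold change was 0.60 (standard error 0.24, unadjusted p = 0.0377, adjusted p = 0.996 from edgeR). The 14 macrophage and monocyte markers, of cells that make BAFF and APRIL, had a median of 0.44 with all 14 above 0, and their sums ran from 2344 to 5039 CPM in CTL and from 4108 to 4930 CPM in Prdm1-CKO mice. Without CTL replicate 2 that median was 0.12, with 13 of 14 above 0, and without CTL replicate 1 it was 0.93. Csf1r was at 511 ± 276 and 702 ± 128 CPM and Lyz2 at 2656 ± 859 and 3251 ± 280 CPM (SD, n = 3), with overlapping groups. All Prdm1-CKO mice were higher in 2 of the 14 macrophage and monocyte markers and 3 of the 10 plasma cell markers, against 4.56% of all genes. At an unadjusted p under 0.05 edgeR called 1 gene higher in each of these lists, against a background of 0.928%, and 0 lower, against 1.42%.

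The remaining lists held smaller or flatter values. The neutrophil list, with 9 of 10 genes tested, had a median log2 fold change of 0.33, and 7 of the 9 were above 0. Dropping a CTL mouse moved that median to -0.10 (replicate 1), 0.0776 (replicate 2) or 0.75 (replicate 3). The voom weights described below gave 0.97. In edgeR 1 of the 9 genes was higher with an unadjusted p under 0.05 and 0 were lower, where the background was 0.928% and 1.42%. The list summed to 112 to 220 CPM in CTL and 170 to 226 CPM in Prdm1-CKO mice. Its most abundant genes, Csf3r and S100a9, were at 43.1 ± 2.65 and 34.0 ± 22.8 CPM (SD, n = 3) in CTL mice. In Prdm1-CKO mice they were at 44.3 ± 5.97 and 42.5 ± 6.29 CPM (SD, n = 3). The dendritic cell list, with 8 of 9 tested, had a median of 0.36 (0.26 without CTL replicate 2, and between 0.10 and 0.68 with each mouse left out), and its sums of 151 to 239 and 164 to 305 CPM overlapped, with Cd209a at 89.4 ± 41.9 and 112 ± 47.7 CPM and Itgax, which encodes CD11c itself, at 44.6 ± 24.5 and 59.0 ± 13.2 CPM (SD, n = 3). Of the 9 stromal and follicular dendritic cell markers, cells known as a source of BAFF, 4 had no count in any mouse, namely Ccl19, Ccl21a, Pdpn and Col3a1, and only Col1a1 was tested. The list summed to at most 5.03 CPM in any mouse, with Col1a1 at 1.56 ± 2.25 and 1.47 ± 0.761 CPM and Cxcl13 at 0.433 ± 0.444 and 0.449 ± 0.267 CPM (SD, n = 3). The 12 Tfh markers had a median log2 fold change of -0.03, between -0.13 and 0.17 with each mouse left out, and summed to 3711 to 4780.5 CPM in CTL and 3760 to 3976 CPM in Prdm1-CKO mice. Among them Cd4, at 996 ± 88.1 and 815 ± 37.4 CPM (SD, n = 3), had a log2 fold change of -0.29 (standard error 0.12, unadjusted p = 0.0465, adjusted p = 0.996 from edgeR), and Cd3e had one of -0.10. The part of these cell types in the values of the 5 members was not tested.

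The pathway list held neighboring ligands, co-receptors, proteases and the signaling and survival genes downstream of the receptors, and its median difference was close to 0. Of 44 genes listed, 41 were tested, with 0 called at an adjusted p under 0.05 in edgeR and in DESeq2. At an unadjusted p under 0.05 edgeR called 0, against a background of 0.928% higher and 1.42% lower. DESeq2 called 1, which was higher, against a background of 1.01% higher and 1.6% lower. The groups did not overlap in 1 gene, also higher, against the 4.56% of all genes. Their log2 fold changes had a median of 0.01, equal on rounding to that of all genes tested, with 22 of 41 above 0 and a range of -0.76 to 0.73.

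The gene in both of these counts was Sdc3, which encodes a syndecan, one of the heparan sulfate proteoglycans to which APRIL binds. It was at 35.6, 25.2 and 13.02 CPM in CTL and 39.1, 42.8 and 41.0 CPM in Prdm1-CKO mice. The groups did not overlap, and the CTL mice were the more spread, with the lowest in CTL replicate 3. The log2 fold change was 0.73 (standard error 0.34, unadjusted p = 0.0636, adjusted p = 0.996 from edgeR), and it was between 0.43 and 1.09 with each mouse left out. DESeq2 gave an unadjusted p of 0.0409. The 3 tested syndecan genes were all above 0, with a median of 0.40, and Sdc2 was too low to be tested.

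The proteases that release the ligands or shed the receptors had a median log2 fold change of -0.05 over 5 genes. The 6 adaptors had a median of -0.10. Traf1, an adaptor of TNF receptor signaling that is itself induced by NF-κB, led them at 387 ± 73.6 and 382 ± 8.61 CPM (SD, n = 3). Caml, the gene of the calcium-modulating protein that binds the tail of TACI, had among the lowest changes of the pathway at 36.5 ± 7.20 and 28.0 ± 3.58 CPM (SD, n = 3), and its log2 fold change was -0.38 (standard error 0.23; edgeR adjusted p = 0.996). Birc3, which encodes the ubiquitin ligase cIAP2 of the TRAF complex, was at 139 ± 8.95 and 140 ± 19.2 CPM (SD, n = 3).

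Among the 7 kinases, with a median log2 fold change of -0.02, Ikbkb, the IKKβ subunit of the canonical NF-κB pathway, was the most abundant at 355 ± 99.6 and 344 ± 32.7 CPM (SD, n = 3). Map3k7, the gene of TAK1, had the lowest change of the pathway, -0.76 (standard error 0.50; edgeR adjusted p = 0.996). It was at 21.3, 73.0 and 21.5 CPM in CTL and 17.7, 29.4 and 21.2 CPM in Prdm1-CKO mice, so that CTL replicate 2 alone was high, and without that mouse the change was 0.07. Syk, a tyrosine kinase of B cell receptor signaling that BAFF-R also engages, was at 59.7, 27.5 and 30.0 CPM in CTL and 52.5, 56.9 and 52.9 CPM in Prdm1-CKO mice, a change of 0.46 (standard error 0.30; edgeR adjusted p = 0.996) with overlapping groups.

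The NF-κB subunits had a median log2 fold change of 0.07 over 5 genes, with Nfkb1, which encodes p105 and p50, highest at 224 ± 14.1 and 220 ± 36.8 CPM (SD, n = 3). The inhibitors had a median of 0.18 over 5 genes, with Nfkbia, the IκBα gene and a rapid NF-κB target, at 400 ± 104 and 454 ± 57.7 CPM (SD, n = 3), a change of 0.18 (standard error 0.21; edgeR adjusted p = 0.996). The 8 survival genes, which BAFF sustains in B cells and which T cells also express, had a median of 0.08, with Mcl1, an antiapoptotic BCL2 family member, at 137 ± 29.1 and 139 ± 34.0 CPM (SD, n = 3). None of the pathway differences passed an adjusted p under 0.05 in edgeR.

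**Figure D4:**
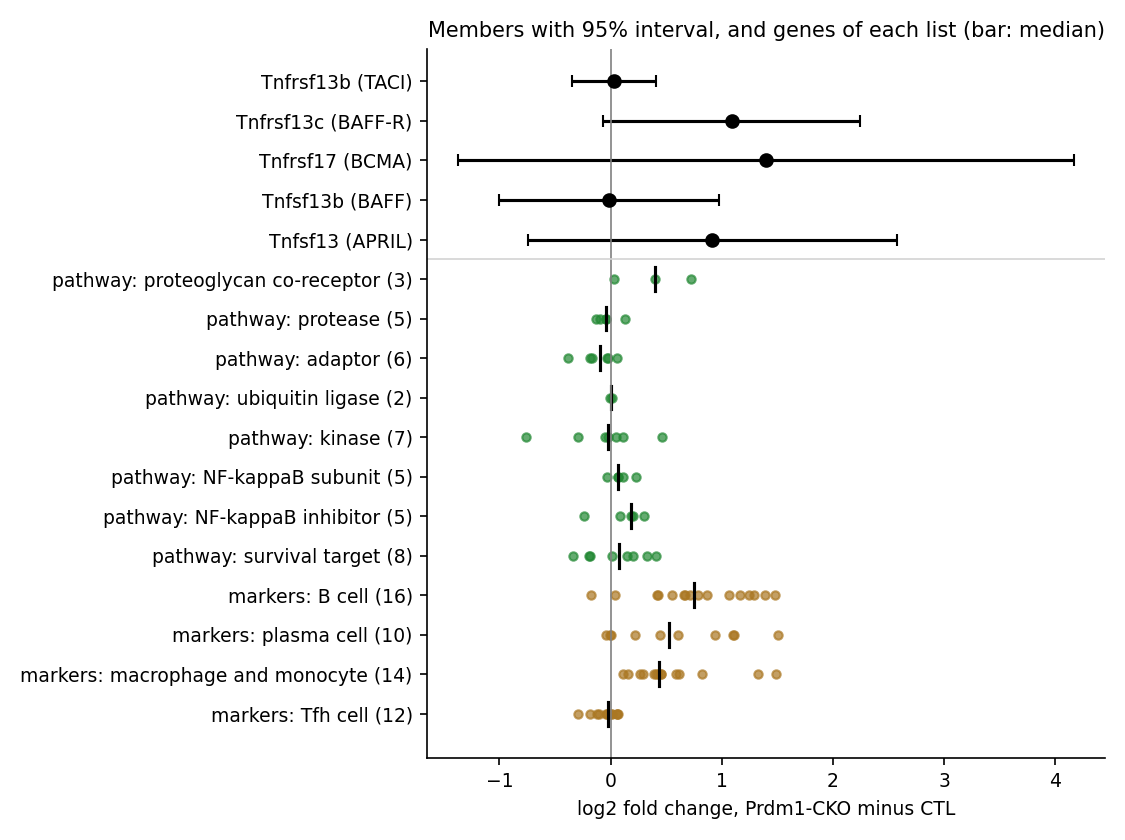
Log2 fold change of Prdm1-CKO against CTL for the 5 members with their 95% intervals (black), and for each tested gene of the pathway by role (green) and of 4 marker lists (brown), with the number of genes in parentheses and a bar at the median. The intervals of all 5 members include 0, the pathway genes lie between -0.76 and 0.73, and the B cell markers have a median of 0.75.

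The 4 members other than TACI shared part of their pattern across the mice, much of it through CTL replicate 2. Pearson correlations of log2 CPM between pairs of the 5 genes over the 6 mice ran from -0.20 for Tnfrsf13b with Tnfsf13b to 0.93 for Tnfrsf17 with Tnfsf13, and the pairs without Tnfrsf13b were all at 0.42 or above. Without CTL replicate 2, in which 4 of the members were at their lowest, the value for Tnfrsf17 with Tnfsf13 was 0.78, and that for Tnfrsf13c with Tnfsf13 went from 0.72 to -0.14, while those for Tnfrsf13c with Tnfrsf17 and Tnfsf13b were -0.32 and -0.52. As a description over 6 points that share libraries, the tested genes of at least 2 CPM whose pattern was most like Tnfrsf13c were Abhd5, Ldha, Mzt1, Ighd and Wdr36, with correlations from 0.986 to 0.995, among which Ighd encodes the immunoglobulin delta heavy chain of naive B cells. For Tnfrsf13b they were Spin1, Nab2, Phka2, Fam117b and Pik3r6, for Tnfrsf17 Psma2, Trbv20, Coq2, Gna12 and Agk, for Tnfsf13b Strada, Igbp1, Mrpl45, Gm8146 and Set, and for Tnfsf13 Ifi44, D3Ertd751e, Dhrs7b, Phc2 and Rps25, each with a correlation of at least 0.978. None of these 25 genes was on a list used here, and each search ran over 12579 genes or more with only 6 mice.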

How the data were processed

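The authors made Smart-seq2 libraries from 50 ng of RNA, sequenced paired reads of 25 bases and deposited raw counts per gene, 1 file per mouse, from featureCounts v1.4.6 on mm10 (GRCm38) with GENCODE annotation. The submitters' processing notes name STAR 2.4.2a and DESeq2. Strandedness, the handling of reads that fit several genes, and whether mates were counted as 1 fragment are not given in the sources used here. Gene identifiers were matched without version to GENCODE M21 on GRCm38, which held 53274 of the 53379, and 50604 had the same version. Tnfrsf13c was among those whose version differed, so its coordinates are those of M21.

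Counts were normalized by TMM and tested with edgeR 4.0.16 (filterByExpr, quasi-likelihood F test, no covariate) in R 4.3.3, with Benjamini-Hochberg adjustment over all 14555 genes tested. All tests were two-sided. The 95% intervals use the standard error and the total (residual and prior) degrees of freedom of edgeR. Log2 CPM used a prior count of 2. The study describes its controls as littermates, no source used here ties a replicate number to a litter or batch, and p-values measure the spread between these mice. The members and gene lists were chosen with earlier results of these data known. Named pathway genes are the most abundant of each role, the 2 highest and 2 lowest fold changes and any with an unadjusted p under 0.05; named markers are the 2 most abundant of each list; and 5 most alike genes are named per member. The value of 1 gene that this rule names and 1 other B cell reference are not reported here; the genes stay in every fit and list count. Alternatives were the size factors and Wald test of DESeq2 1.42.0, a filter of at least 10 counts per mouse, no filter, a block for the replicate number, libraries thinned to the smallest total, counts halved, voom with quality weights (limma 3.58.1), another summary of the B cell markers, and each mouse left out. Giving the marker lists with a mouse left out was chosen after seeing the data. The fits were also run on simulated counts with changes placed only in more abundant genes, so that run does not cover members as low as Tnfrsf17 and Tnfsf13.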

Additional observations from a re-analysis of the deposited data

How the results depend on the processing

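No member passed an adjusted p under 0.05 under any setting that gave a value, the lowest adjusted p being 0.715 for Tnfrsf13c. The unadjusted p of Tnfrsf13c was under 0.05 with DESeq2 (0.0346), at least 10 counts in every mouse (0.0366), voom weights (0.0458), without Prdm1-CKO replicate 2 (0.0493) and with the block below. With each mouse left out, log2 fold changes ran from 0.76 to 1.31 for Tnfrsf13c, 0.47 to 2.33 for Tnfrsf17, 0.47 to 1.38 for Tnfsf13, -0.0755 to 0.15 for Tnfrsf13b and -0.24 to 0.15 for Tnfsf13b. With at least 10 counts in every mouse, Tnfrsf17 and Tnfsf13 were left out. The sign turned for Tnfrsf13b with thinned libraries (-0.0454) and voom weights (-0.0322), and for Tnfsf13b without a filter (0.00689). Among pathway genes near 0, the sign turned for Traf1 without a filter (0.000457), for Birc3 and Mcl1 with thinned libraries (-0.0143 and -0.00779), for Ikbkb and Mcl1 with voom weights (0.00865 and -0.15). With each mouse left out, ranges crossing 0 were -0.17 to 0.12 for Traf1, -0.10 to 0.11 for Birc3, -0.25 to 0.10 for Ikbkb, -0.17 to 0.0517 for Nfkb1, -0.0279 to 0.33 for Nfkbia, -0.18 to 0.16 for Mcl1 and -1.06 to 0.0750 for Map3k7. The difference of Tnfrsf13c per B cell marker was -0.0627 with the mean of log2 CPM as the reference, and ran from 0.27 to 0.74 with each mouse left out. Genes called at an adjusted p under 0.05 numbered 7 higher and 2 lower with DESeq2 and 1 higher without a filter. At an unadjusted p under 0.05 the counts were 264 higher and 417 lower with DESeq2, 426 and 510 without a filter, 268 higher with voom weights, and 58 to 580 higher and 107 to 617 lower with each mouse left out. Pathway genes called so numbered 1 higher with DESeq2 and without a filter, 1 lower with voom weights, and 0 to 2 in either direction with each mouse left out. The share of all genes called lower with voom weights is not given here, and these pathway counts were not read as results. The causes were not tested.

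Replicate numbers were shared by the groups, but residuals of same-numbered mice correlated at 0.158, 0.0282 and 0.0160, and no label ties them, so they were not read as pairs. With the replicate number as a block, the log2 fold change of Tnfrsf13c was 1.16 (unadjusted p = 0.0425, adjusted p = 0.992 from edgeR), and that of Tnfsf13b was 0.00266. In that fit 1 pathway gene was called higher at an unadjusted p under 0.05. The share of all genes called with the block is not given here, so that count was not read as a result.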
